A study of Rattus norvegicus with 9 samples.

Results

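The 33 genes described here encode the collagens, laminins, nidogens and heparan sulphate proteoglycans of the basement membrane, the collagens that form beaded filaments and networks or sit on fibrils, and the receptors that bind cells to this matrix. They were chosen by name from 22608 gene names, and all 33 met the condition of a mean CPM (counts scaled to a common library total) of at least 1 over the 9 libraries and were among the 15467 genes tested. Left ventricles of Sprague-Dawley rats supplied the RNA, at an age given as 8 weeks plus 28 days, in 3 groups of 3 libraries that had received saline, angiotensin II (Ang II), or Ang II with sodium butyrate (NaBu). Ang II is a vasoconstrictor peptide used in rodents to load the heart, and butyrate is a product of gut bacteria that blocks histone deacetylases. The labels state neither a dose nor whether each library is a different animal, and every p-value below therefore reflects a spread between samples that may be technical. No group received NaBu without Ang II, so NaBu was read only on top of Ang II.

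The basement membrane is a thin sheet that surrounds each cardiomyocyte and underlies the capillary endothelium. Laminin trimers form a network anchored to cells through integrins and dystroglycan, type IV collagen forms a network of its own, and nidogens and perlecan connect these networks. Type VI collagen links the basement membrane to the surrounding interstitium, while types XII, XIV and XVI decorate fibrils made of other collagens.

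Genes of type IV collagen chains lie in head-to-head pairs. For the pairs Col4a1 with Col4a2 and Col4a3 with Col4a4, 1 promoter each is shown. The log2 ratio of the first pair ranged from 0.57 to 0.70 over the 9 libraries, and that of the second from 1.45 to 2.30. Exact permutation tests of these ratios between groups could not pass 0.05, since 3 libraries against 3 cannot go below p = 0.1. Col4a4 had far fewer counts than the first pair. The sequences are RefSeq's on the rat build GRCr8 and run from 250 bases before to 50 bases after the annotated start. Capitals mark each GC box (GGGCGG) and CCAAT box (CCAAT) match on either strand, so the reverse complements CCGCCC and ATTGG are capitals too.
Col4a1, chr16:84885347-84885646, plus strand: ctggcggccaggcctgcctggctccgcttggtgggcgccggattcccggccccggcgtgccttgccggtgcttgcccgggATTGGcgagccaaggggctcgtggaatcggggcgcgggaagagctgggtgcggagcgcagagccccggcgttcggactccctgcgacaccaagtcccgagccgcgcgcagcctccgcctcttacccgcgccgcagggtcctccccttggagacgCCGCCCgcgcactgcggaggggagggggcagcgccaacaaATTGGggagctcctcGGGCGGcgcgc
Col4a3, chr9:91323740-91324039, plus strand: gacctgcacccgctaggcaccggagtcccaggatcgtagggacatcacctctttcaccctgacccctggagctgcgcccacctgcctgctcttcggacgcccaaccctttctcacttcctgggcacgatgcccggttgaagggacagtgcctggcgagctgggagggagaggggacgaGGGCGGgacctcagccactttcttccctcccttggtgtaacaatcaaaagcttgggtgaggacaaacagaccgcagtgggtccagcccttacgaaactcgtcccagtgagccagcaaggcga
Col4a2 starts 77 bases from Col4a1 on the opposite strand, and their windows of 300 bases share 176 bases. Col4a4 starts 413 bases from Col4a3 on the opposite strand, and these windows share 88 bases. The GC box was matched 2 times in the windows of Col4a1 and of Col4a2, 1 time in that of Col4a3 and 0 times in that of Col4a4. It was present in 16 of the 25 member promoters in the table and in 33.1% of all 33469 promoters. The CCAAT box was matched 2 times for Col4a1 and 1 time for Col4a2, and 0 times for Col4a3 and Col4a4, with a match in 6 of 25 member promoters and 37.5% of all. The TATA box (TATAAA) was matched in none of these 4 windows, in 1 of 25 member promoters and in 14.2% of all. Each member counts 1 time and met the condition on CPM. The 33469 promoters were neither reduced to 1 per gene nor limited by level here, so these shares are not of like sets. A match describes letters in the window and not a bound site.

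The 9 libraries held 29284780 to 49865446 estimated counts, and the 10 cardiomyocyte markers together gave 121380 to 177106 CPM in every group, so the defining markers of the labelled tissue were present. The design text held by GEO speaks instead of strained and unstrained tendon, against the title and the label of every sample. The groups below follow the sample labels. Saline libraries were the least alike. Saline 2 had the highest atrial marker sum, 6039 CPM, against 111 to 260 CPM in the Ang II and NaBu libraries, and the lowest cardiomyocyte sum. Saline 3 had the highest sum of 7 tendon-associated genes, 173 CPM. The Ang II libraries had 21.7 to 29.5 CPM and the NaBu libraries 38.4 to 76.2 CPM. Each deposited table holds 1 group, so a difference between tables and one between groups cannot be told apart.

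The summed level of the 33 genes spanned a narrow range. It was 9187 to 10209 CPM in saline, 9540 to 9678 CPM with Ang II and 9183 to 9332 CPM with NaBu added. For Ang II against saline, edgeR's quasi-likelihood test called 0 of 33 genes at a Benjamini-Hochberg adjusted p under 0.05, against 0% of all genes. At an unadjusted p under 0.05 there were 5 members, against 5.94% of all genes, and DESeq2 called 1 member, Col14a1, against 0.369% of all. The groups did not overlap for 4 members, against 9.9% of all genes, with 1 member higher (4.94% of all genes) and 3 lower (4.97%). The mean was lower for 18 of 33, against 51% of all genes. For NaBu with Ang II against Ang II alone, edgeR again called 0 of 33, against 1.6% of all genes, 0.647% higher and 0.957% lower. At an unadjusted p under 0.05 there were 6 members, against 22.4% of all genes, and DESeq2 called 4 members, against 9.83%. The groups did not overlap for 17 members, against 35.6% of all genes, with 13 lower (17.5% of all genes) and 4 higher (18.1%). The mean was lower for 24 of 33, against 52.7% of all genes. For NaBu with Ang II against saline, Col4a3, Col14a1 and Nid2 fell and no member rose, so 3 of 33 were called against 5.06% of all genes. Of all genes 2.05% fell and 3.01% rose. At an unadjusted p under 0.05 there were 11 members, against 24.6% of all genes. DESeq2 called 8 members, against 13%. The groups did not overlap for 12 members, against 28.6% of all genes, with 11 lower (14.1% of all genes) and 1 higher (14.5%). The mean was lower for 24 of 33, against 55.3% of all genes.

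The median log2 difference of the 33 genes was -0.05 for Ang II against saline, where that of all tested genes was -0.00. It was -0.10 for NaBu with Ang II against Ang II, beside -0.02 for all genes, and -0.14 for NaBu with Ang II against saline, beside -0.05. The 3 comparisons share groups, so their values are given side by side and do not support each other. By library, the median of the members relative to each gene's own mean was 0.06 to 0.12 on the log2 scale in saline, 0.00 to 0.03 with Ang II and -0.11 to -0.03 with NaBu. Saline 3 held the highest value of 13 members, and the NaBu libraries 2 and 6 held the lowest of 6 and 7.

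**Figure D1:**
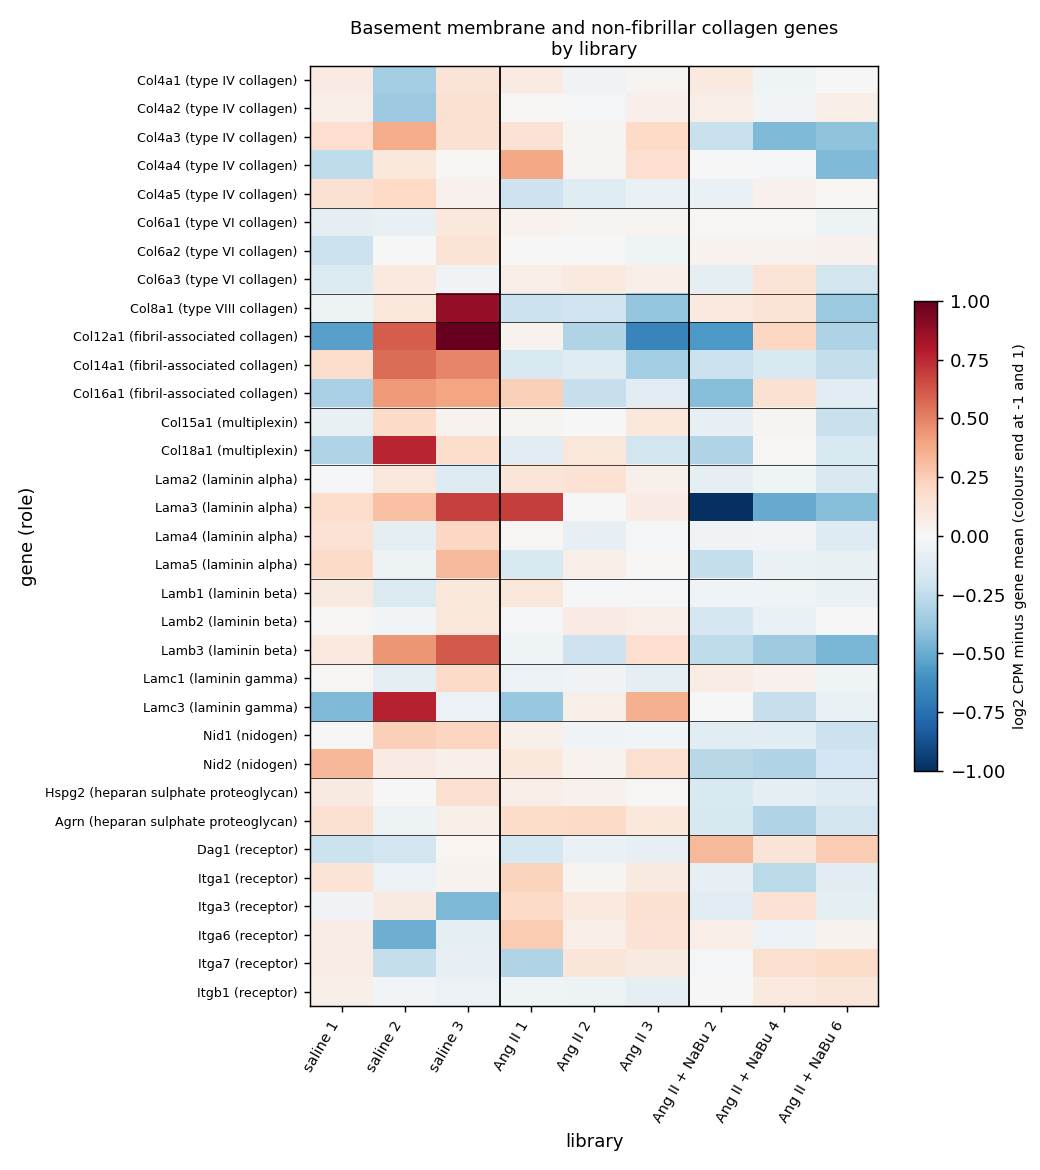
Level of each of the 33 genes in each library as log2 CPM minus the gene's mean over the 9 libraries, with genes ordered by role and colours ending at -1 and 1. Most rows are pale, Col8a1 and Col12a1 are darkest in saline 3, and Col4a3, Nid2 and Lama3 are blue in the 3 NaBu libraries.

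Among type IV collagen genes, Col4a3 was lower with NaBu, and the abundant pair Col4a1 and Col4a2 was level. Col4a1, which with Col4a2 builds the widespread form of the network, was 970, 724 and 1000 CPM in saline, 972, 893 and 933 CPM with Ang II, and 983, 890 and 920 CPM with NaBu. Its groups overlapped throughout, with saline 2 the lowest library, and Col4a2 was also lowest there. The log2 differences of Col4a1 were 0.05 (SE 0.129) for Ang II against saline and -0.00 (SE 0.129) for NaBu against Ang II. Col4a3, a chain of the tissue-restricted network best known in the kidney glomerulus, was 52.5, 60.7 and 52 CPM in saline, 51.8, 47.6 and 53.7 CPM with Ang II, and 40.2, 34.5 and 35.5 CPM with NaBu. All 3 NaBu libraries lay below the other 6 libraries. Col4a3 fell by 0.58 on the log2 scale against saline (SE 0.103, edgeR adjusted p = 0.0209). Against Ang II alone the difference was -0.47 (SE 0.103, adjusted p = 0.0523), which missed the threshold, and DESeq2 called it with an adjusted p of 0.00331. The call against saline was lost with any 1 NaBu library left out, where the adjusted p was 0.0591, 0.0706 and 0.116 without NaBu 2, 4 and 6, and the log2 differences were -0.65, -0.54 and -0.56.

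Col4a4, the partner of Col4a3, was 10.7, 13.8 and 12.8 CPM in saline, 16.6, 13 and 14.3 CPM with Ang II, and 12.7, 12.6 and 9.39 CPM with NaBu. Saline overlapped both other groups, while the NaBu libraries lay just below those with Ang II. The log2 difference between these groups was -0.34 (SE 0.163, adjusted p = 0.246). Col4a5, the X-linked chain that joins Col4a3 and Col4a4 in a trimer, was 125, 129 and 116 CPM in saline, 97.5, 103 and 107 CPM with Ang II, and 107, 116 and 114 CPM with NaBu. The lowest saline and the highest NaBu library both rounded to 116 CPM, and all Ang II libraries lay below all saline libraries. Its log2 difference was -0.27 for Ang II against saline (SE 0.0873, adjusted p = 0.743) and 0.14 for NaBu against Ang II (adjusted p = 0.389).

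Of the 9 laminin chain genes, none passed the edgeR test in any of the 3 comparisons, and 2 of low level, Lama3 and Lamb3, were called by DESeq2 for NaBu with Ang II against saline. Lama2, the alpha chain of the muscle laminin whose loss causes congenital muscular dystrophy, was 780, 852 and 719 CPM in saline, 855, 870 and 816 CPM with Ang II, and 740, 764 and 707 CPM with NaBu. The NaBu libraries were below those with Ang II and overlapped saline, with log2 differences of -0.20 (SE 0.0986, adjusted p = 0.263) and -0.09. Lama4 and Lama5, the alpha chains of endothelial laminins, ranged over the 9 libraries from 338 to 428 CPM and from 102 to 150 CPM. Their log2 differences for NaBu with Ang II against saline were -0.16 and -0.29, with adjusted p of 0.379 and 0.157.

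Lamb2, the beta chain of mature muscle and vessel laminins, was 672, 657 and 717 CPM in saline, 661, 709 and 701 CPM with Ang II, and 596, 639 and 669 CPM with NaBu. Lamc1, the gamma chain shared by most laminins, was 752, 694 and 851 CPM in saline, 713, 727 and 697 CPM with Ang II, and 785, 768 and 722 CPM with NaBu. For both genes the groups overlapped in each comparison, and their 6 log2 differences lay between -0.12 and 0.09. Lamb1, the other broadly expressed beta chain, ranged from 333 to 399 CPM.

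Lama3 and Lamb3 are chains of the epithelial laminin of skin, and Lamc3 is a gamma chain of restricted distribution. All 3 were low here. Lama3, described after its values were seen, was 3.03, 3.3 and 4.31 CPM in saline, 4.34, 2.67 and 2.84 CPM with Ang II, and 1.34, 1.89 and 2 CPM with NaBu. The NaBu libraries were the lowest 3, and the smallest of them rested on 49 estimated counts, where 1 sequenced fragment was worth about 4. The log2 difference of Lama3 was -0.91 against Ang II (SE 0.293, adjusted p = 0.115) and -1.02 against saline (SE 0.294, adjusted p = 0.0696). Lamb3 ranged from 3.2 to 6.7 CPM, with a log2 difference of -0.75 for NaBu with Ang II against saline (SE 0.206, adjusted p = 0.0628). Over the alternative settings that difference ranged from -0.88 to -0.29. In saline 1, 100% of the gene's estimated counts lay in a transcript that held 0% in every other library. Lamc3 ranged from 3.54 to 8.17 CPM with its highest value in saline 2, and its groups overlapped.

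Of the nidogens, which bridge laminin and type IV collagen, Nid2 fell with NaBu against saline. Nid2 was 43.2, 36.3 and 35.5 CPM in saline, 36.9, 35 and 38.3 CPM with Ang II, and 28.2, 27.8 and 29.9 CPM with NaBu. Saline and Ang II overlapped, and every NaBu library lay below both groups. Nid2 fell by 0.42 on the log2 scale against saline (SE 0.101, edgeR adjusted p = 0.0424), and its difference from Ang II was -0.36 (SE 0.1, adjusted p = 0.0849). The call against saline was made in 7 of 19 alternative settings, over which the difference ranged from -0.59 to -0.33 and the adjusted p from 0.0122 to 0.143. Without saline 1, the highest library, the difference was -0.33 (adjusted p = 0.0949).
Nid1 was 415, 489 and 482 CPM in saline, 431, 406 and 407 CPM with Ang II, and 384, 385 and 359 CPM with NaBu. The NaBu libraries were again the lowest 3, and saline and Ang II overlapped. The log2 difference of Nid1 was -0.14 against Ang II and -0.30 against saline (SE 0.098, adjusted p = 0.0987).

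Both heparan sulphate proteoglycans were lowest in the 3 NaBu libraries without passing the edgeR test. Hspg2, which encodes perlecan, was 1371, 1287 and 1438 CPM in saline, 1349, 1323 and 1294 CPM with Ang II, and 1153, 1200 and 1177 CPM with NaBu. Saline and Ang II overlapped, and the log2 differences of NaBu were -0.17 from Ang II (adjusted p = 0.313) and -0.21 from saline (SE 0.0915, adjusted p = 0.182). Agrn, which encodes agrin, a dystroglycan ligand first known from the neuromuscular junction, was 196, 170 and 183 CPM in saline, 200, 201 and 189 CPM with Ang II, and 157, 143 and 155 CPM with NaBu. The difference of Agrn from Ang II was -0.38 on the log2 scale (SE 0.0919, adjusted p = 0.066), and from saline -0.27 (SE 0.0918, adjusted p = 0.106). DESeq2 called Agrn against Ang II with an adjusted p of 0.00364, and over the alternatives edgeR's values and this one ranged from 0.00364 to 0.288.

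Among the receptors, Dag1 had its highest values in the NaBu libraries, without passing the edgeR test. Dag1 encodes dystroglycan, the laminin and agrin receptor of the dystrophin complex, and is described after its values were seen. It was 277, 282 and 325 CPM in saline, 284, 307 and 303 CPM with Ang II, and 402, 352 and 384 CPM with NaBu. All 3 NaBu libraries exceeded the other 6, with log2 differences of 0.35 from Ang II (SE 0.102, adjusted p = 0.0945) and 0.37 from saline (SE 0.102, adjusted p = 0.0641). DESeq2 called the difference from Ang II with an adjusted p of 0.0089. In whole tissue, a difference in the number of cells of a type and one in RNA per cell cannot be told apart, and the 10 cardiomyocyte markers summed to 121380 to 174012 CPM in saline, 147050 to 155483 CPM with Ang II and 163583 to 177106 CPM with NaBu, with 9 of 10 higher in mean with NaBu than with Ang II. Their part in the Dag1 difference was not tested.

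The integrins did not pass the test in any comparison. Itgb1, the beta subunit that pairs with each alpha subunit in this set, was 488, 461 and 451 CPM in saline, 455, 452 and 439 CPM with Ang II, and 471, 502 and 509 CPM with NaBu. Its NaBu libraries lay above those with Ang II and overlapped saline (log2 differences 0.14 and 0.08). Itga1, a collagen receptor subunit, lay lower with NaBu than with Ang II without overlap (-0.26, SE 0.101, adjusted p = 0.166). The laminin receptor subunits Itga3, Itga6 and Itga7 ranged from 13.4 to 20.9, 172 to 288 and 229 to 321 CPM. Itga3 was higher with Ang II than with saline without overlap, at a log2 difference of 0.26 (adjusted p = 0.894) that was 1.01 with the highest transcript alone. That transcript held 77.7%, 20.8% and 0% of the gene's estimated counts in saline and 88.2%, 61.5% and 28.1% with Ang II. A change of transcript and a different split of shared reads cannot be told apart there. Itga6 differed by 0.31 (adjusted p = 0.836) with its lowest value in saline 2.

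**Figure D2:**
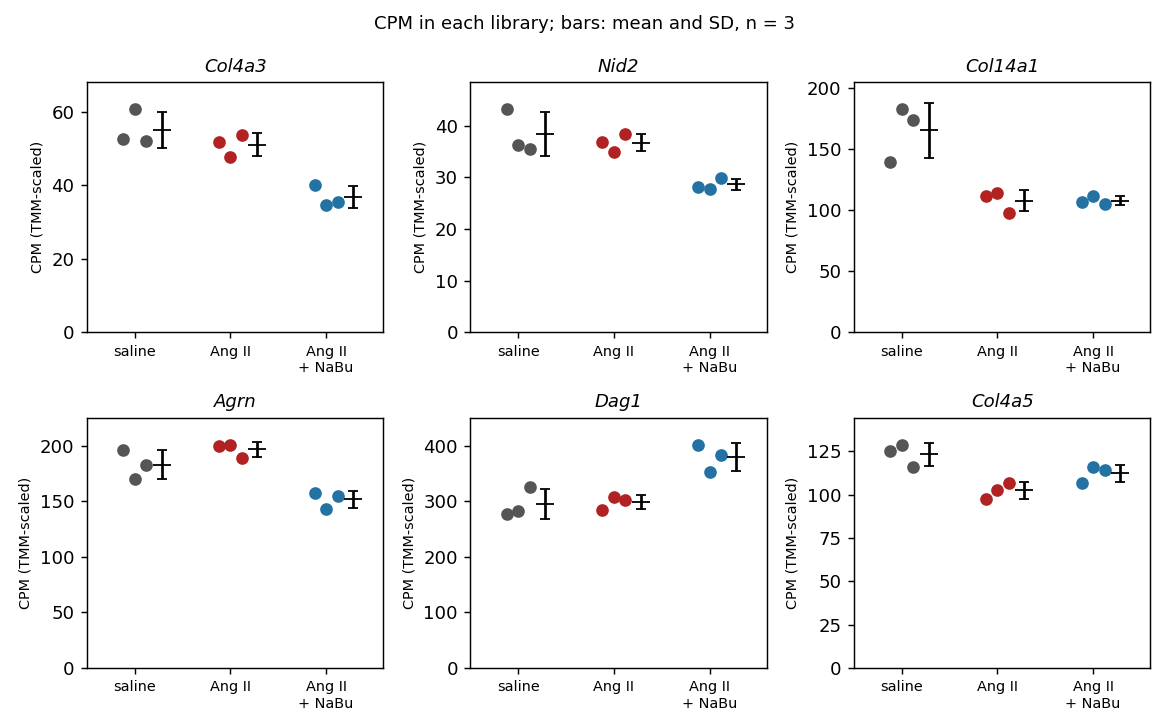
CPM of 6 genes in each library, scaled by TMM, with points for the libraries and bars for the mean and SD of 3. Col4a3, Nid2 and Agrn lie lowest and Dag1 highest in the NaBu libraries, Col14a1 is highest in saline, and Col4a5 is lowest with Ang II.

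Mean levels of the 3 fibril-associated collagens were highest in saline, and Col14a1 fell in the NaBu group against saline. Col14a1, whose product sits on collagen fibrils and is a common fibroblast transcript, was 140, 183 and 174 CPM in saline, 112, 114 and 97.9 CPM with Ang II, and 107, 112 and 105 CPM with NaBu. Every saline library exceeded the other 6, and the Ang II and NaBu libraries overlapped. The log2 difference between these last groups was -0.00 (adjusted p = 0.996). Col14a1 fell by 0.62 on the log2 scale in the NaBu group against saline (SE 0.116, edgeR adjusted p = 0.0248). The difference of Ang II from saline was also -0.62 (SE 0.116), with an adjusted p of 0.443 from edgeR and 0.001 from DESeq2. Before adjustment, edgeR's p was 0.000324 for Ang II and 0.000318 for NaBu with Ang II, each against saline. The 2 adjusted values from edgeR thus differ through the adjustment over all genes and not through Col14a1 itself. With saline 1 as the only saline library the difference was -0.37 in both comparisons. The adjusted p of 0.134 for NaBu in that fit assumes that the lone library varies like the other groups. The call was lost without NaBu 2, 4 or 6 (adjusted p = 0.0873, 0.0706 and 0.121) and without Ang II 2 (0.0517).

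Beside Col14a1, the 15 fibroblast markers together gave 3107 to 4629 CPM in saline, 3062 to 3258 CPM with Ang II and 3065 to 3443 CPM with NaBu, and 13 of 15 were lower with Ang II than with saline. Lamc3 is in both sets. The part of these markers in the Col14a1 difference was not tested.

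Col12a1, described after its values were seen, showed the largest spread of all members. This fibril-associated collagen of tendon and stressed matrix was 17.7, 39.2 and 75.4 CPM in saline, 26.4, 20.9 and 16.3 CPM with Ang II, and 17.3, 29.7 and 20.8 CPM with NaBu. Saline held both the highest libraries and 1 of the lowest. The log2 difference for Ang II against saline was -1.05 (SE 0.427, adjusted p = 0.796), -0.42 without saline 3 and 0.26 with saline 1 alone. Col8a1, a short-chain network collagen of vessels, was 23.7, 26.5 and 45 CPM in saline, 21.1, 21.4 and 18.6 CPM with Ang II, and 26.2, 27 and 19 CPM with NaBu. Saline lay above Ang II without overlap, by a log2 difference of -0.64 (SE 0.23, adjusted p = 0.746) that was -0.30 without saline 3. Saline 3 was also the library with the highest sum of tendon-associated genes, whose part in these values was not tested (28.2 to 173 CPM over the saline libraries). Col16a1, also fibril-associated, ranged from 12 to 21.7 CPM with overlapping groups, and its log2 difference for Ang II against saline went from -0.22 to -1.13 with the highest transcript alone. That transcript held 56.9%, 72% and 48.6% of the gene's estimated counts in saline and 31%, 25.5% and 37.5% with Ang II, and reads shared between transcripts may be split uncertainly.

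The multiplexins, types XV and XVIII, are basement membrane collagens that carry heparan or chondroitin sulphate chains. Col15a1 was 171, 205 and 184 CPM in saline, 183, 180 and 193 CPM with Ang II, and 170, 183 and 154 CPM with NaBu. Its groups overlapped, with log2 differences from -0.14 to -0.01. Col18a1, the source of endostatin, ranged from 27.6 to 57.7 CPM with its highest value in saline 2. Its log2 difference for Ang II against saline was -0.33 (SE 0.223, adjusted p = 0.928) and -0.01 without saline 2. That library also had the highest sums of atrial and fibroblast markers and the lowest of cardiomyocyte markers. The part of these markers in the Col18a1 value was not tested.

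Summed over transcripts, the 3 type VI collagen genes differed little between groups. Col6a3 was 342, 402 and 367 CPM in saline, 393, 402 and 392 CPM with Ang II, and 352, 413 and 331 CPM with NaBu, with overlap in every comparison. Col6a1 and Col6a2 ranged from 263 to 301 and from 228 to 292 CPM. Across the 3 genes and 3 comparisons the log2 differences of these sums lay between -0.11 and 0.09. The division of Col6a3 among its transcripts was not stable. Its highest transcript held 0%, 10.3% and 13% of the gene's estimated counts in saline, 27.6%, 41% and 27% with Ang II, and 59.6%, 18.6% and 58.2% with NaBu. With that transcript alone the log2 differences from saline were 2.11 with Ang II (adjusted p = 1) and 2.44 with NaBu (adjusted p = 0.486). Libraries of 1 group differed in these shares, and a change of transcript and a different split of shared reads cannot be told apart. For Col6a2, a minor transcript took 18.5% and 36.4% of the gene's estimated counts in saline 1 and 2 and 3.99% to 5.39% elsewhere.

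**Figure D3:**
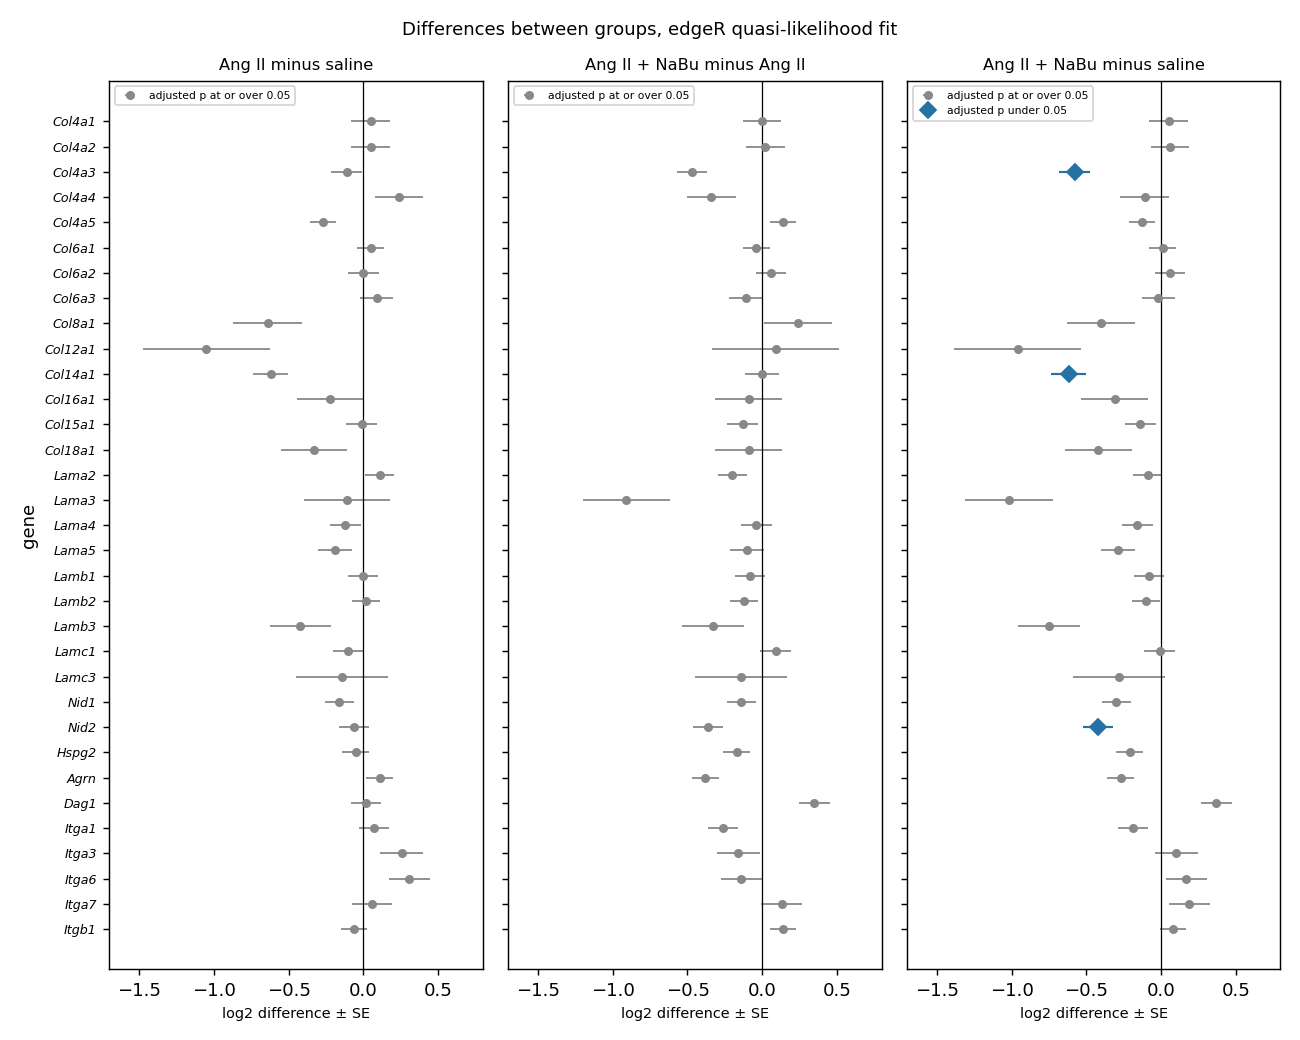
Log2 difference of each of the 33 genes in the 3 comparisons, with its standard error as the bar. Diamonds mark an adjusted p under 0.05 in the edgeR fit over 15467 genes: 0 for Ang II against saline, 0 for NaBu with Ang II against Ang II, and Col4a3, Col14a1 and Nid2 for NaBu with Ang II against saline.

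Ratios of partner genes within a library do not depend on the scaling between libraries. Only their change between libraries is read, since transcript lengths were not used. The log2 ratio of Col4a1 to Col4a2 was 0.65, 0.65 and 0.60 in saline, 0.70, 0.60 and 0.61 with Ang II, and 0.66, 0.62 and 0.57 with NaBu. In saline 2, where both genes were lowest, the ratio was 0.65, as in saline 1. The log2 ratio of Col4a3 to Col4a4 was 2.30, 2.14 and 2.02 in saline, 1.65, 1.87 and 1.91 with Ang II, and 1.67, 1.45 and 1.92 with NaBu. Saline lay above both other groups, by 0.34 and 0.47 on the log2 scale, and Ang II and NaBu overlapped. Col4a4 rested on 333 to 621 estimated counts a library, against 25960 to 44213 for Col4a1. The part of these lower counts in the wider spread of its ratio was not tested. The ratio of Hspg2 to Agrn was 2.81, 2.92 and 2.98 in saline, 2.76, 2.72 and 2.77 with Ang II, and 2.88, 3.07 and 2.93 with NaBu. The Ang II libraries were the lowest 3, by 0.21 below NaBu, while NaBu and saline overlapped. The two-sided exact permutation p of 3 libraries against 3 cannot go below 0.1, and none of 36 tests over 12 ratios fell below an adjusted p of 0.514.

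**Figure D4:**
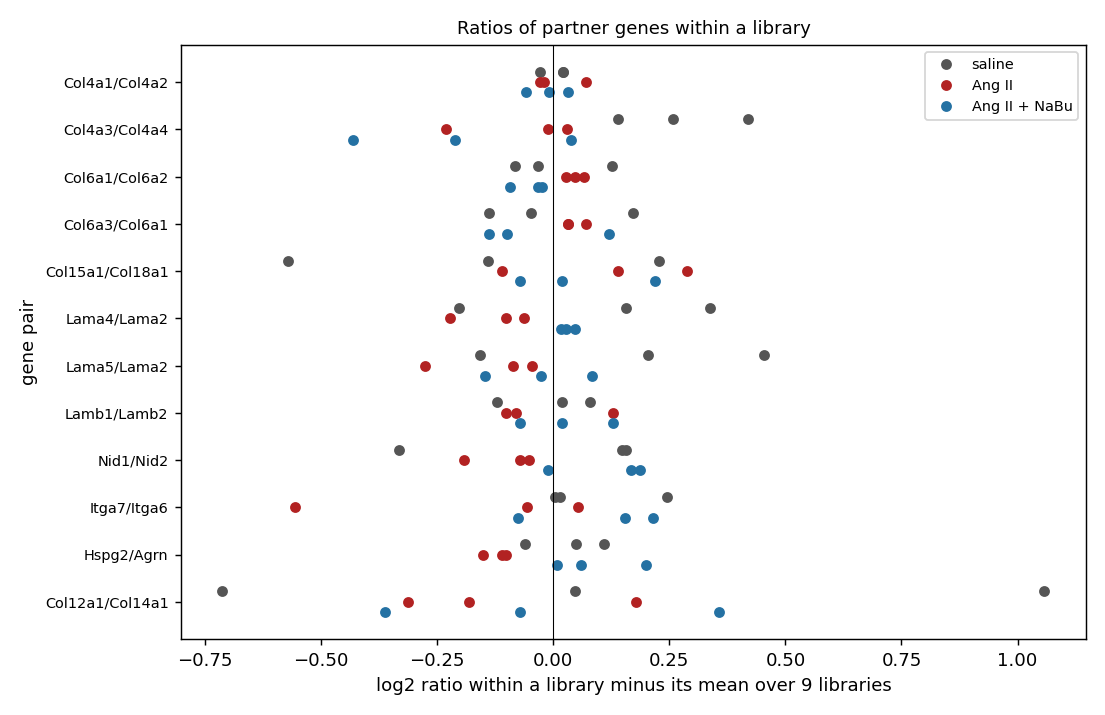
Log2 ratio of 12 pairs of genes in each library, minus the pair's mean over the 9 libraries, with 1 point per library. Col4a1/Col4a2 is tight in all groups, Col4a3/Col4a4 is highest in saline, and Col12a1/Col14a1 spreads most among the saline libraries.

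Genes of the same matrix outside the set were read against the same shares of all genes as above. Of 28 other basement membrane genes tested, 0 passed for Ang II against saline with edgeR. At an unadjusted p under 0.05 there were 5 (5.94% of all genes), and DESeq2 called 3 (0.369%). The smallest p-values there belonged to Col4a6, the further partner of Col4a5, at -1.53 (adjusted p = 0.443) and Ltbp3, a latent TGF-beta binding protein, at -0.67 (adjusted p = 0.445). For NaBu against Ang II only Egfl7 fell, an endothelial matrix protein at 102 CPM with Ang II and 66.5 CPM with NaBu (-0.61, SE 0.0842, adjusted p = 0.0296). That is 1 of 28 against 1.6% of all genes, with 7 at an unadjusted p under 0.05 (22.4% of all genes) and 4 called by DESeq2 (9.83%). Against saline Egfl7, Fbln2 and Ltbp3 fell, by 0.56, 0.57 and 0.57 on the log2 scale (adjusted p = 0.0149, 0.0422 and 0.0441). These 3 of 28 stand beside 2.05% of all genes that fell, with 11 at an unadjusted p under 0.05 (24.6% of all genes) and 6 called by DESeq2 (13%). The medians of this list in the 3 comparisons, in that order, were -0.14, -0.14 and -0.37.

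Of 45 other matrix receptors and dystrophin complex genes tested, 0 were called for Ang II against saline by edgeR or by DESeq2. At an unadjusted p under 0.05 there were 2, against 5.94% of all genes. With NaBu against Ang II, Sgcb rose, a sarcoglycan of the dystrophin complex that also holds Dag1 (196 to 278 CPM, log2 difference 0.51, SE 0.107, adjusted p = 0.0488). Sgcb was the 1 gene of 45 that edgeR called, against 1.6% of all genes, while 11 had an unadjusted p under 0.05 (22.4% of all genes) and DESeq2 called 9 (9.83%). Against saline 4 of 45 rose, beside 3.01% of all genes, and 0 fell. At an unadjusted p under 0.05 there were 11 (24.6% of all genes), and DESeq2 called 7 (13%). Among them were the integrin subunit Itgb8 (log2 difference 0.57, adjusted p = 0.0323), Sgcb (0.48, adjusted p = 0.0363) and sarcospan, Sspn (0.48, adjusted p = 0.0476). The medians of this list were -0.05, 0.11 and -0.05.

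Of 12 other non-fibrillar collagens, edgeR called 0 in each comparison, with 1, 1 and 3 at an unadjusted p under 0.05 and 0, 1 and 1 called by DESeq2. The medians were -0.35, -0.05 and -0.64, and the growth-plate collagen Col10a1 had a log2 difference of -0.66 from Ang II (adjusted p = 0.0902). Of 10 fibrillar collagens, edgeR called only Col11a2, a cartilage chain, which fell in both NaBu comparisons, where DESeq2 called 1 and 2 and the counts at an unadjusted p under 0.05 were 1 and 6. It was 9.13 CPM with Ang II and 2.45 CPM with NaBu (-1.90, adjusted p = 0.0372), and against saline it fell by 1.72 (adjusted p = 0.0201). For Ang II against saline edgeR and DESeq2 called 0 of these 10, with 5 at an unadjusted p under 0.05, and the medians were -0.26, -0.05 and -0.39. Of 22 enzymes and chaperones of type IV collagen assembly, edgeR called 0 in each comparison, with 3, 5 and 3 at an unadjusted p under 0.05 and 1 called by DESeq2 in each. Their medians were -0.12, -0.00 and -0.15, beside -0.00, -0.02 and -0.05 for all genes. Over all genes, 5.94%, 22.4% and 24.6% had an unadjusted p under 0.05 in the 3 comparisons. DESeq2 called 0.369%, 9.83% and 13% of all genes, and edgeR 0%, 1.6% and 5.06%.

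Markers of cell types were read beside these values. For NaBu against Ang II, fibroblast markers had a median log2 difference of 0.03, with 8 higher and 7 lower in mean. Cardiomyocyte markers had a median of 0.23. The 14 endothelial markers tested summed to 2669 to 2896 CPM in saline, 2662 to 3157 CPM with Ang II and 2233 to 2704 CPM with NaBu. The mean of each of these 14 was lower with NaBu than with Ang II, at a median of -0.24 on the log2 scale, and 1, Egfl7, which is in both lists, passed the test. Of the 12 pericyte and smooth muscle markers 11 had a lower mean, with a median of -0.24, while their sum was higher with NaBu (3744 to 4218 CPM) than with Ang II (3172 to 3410 CPM). The 9 mesothelial and epicardial markers present summed to 34.2 to 35.2 CPM with Ang II and 24 to 25.6 CPM with NaBu. Only 6 of them were tested, of which 5 had a lower mean with NaBu and 1 a higher, with a median of -1.85. The part of these markers in the lower Col4a3, Nid2, Hspg2 and Agrn levels was not tested. Over the 9 libraries, Schwann cell markers gave 43 to 159 CPM and leukocyte markers 326 to 438 CPM, and erythroid markers 1277 to 3050 CPM.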

How the data were processed

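Left ventricle RNA of 9 libraries was measured by RNA-seq. Per the file headers, the authors' deposited tables, 1 for each group, list an estimated count for each transcript in each library. The saline table holds other deposited values of the same kind with a stray line-end character, stripped here. Low values piled up at multiples of about 4 estimated counts per fragment. Per the submitters' processing notes Bowtie 0.12.2 and the build mm8 (mouse) were used, although transcripts carry rat RefSeq IDs. The counter, annotation and strand setting were not given in the sources used here, and reads shared by related genes may be split uncertainly.

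Here, transcripts were summed by gene name (22608 genes) and rounded. edgeR 4.0.16 in R 4.3.3 (TMM, filterByExpr, quasi-likelihood, all 3 groups in 1 fit; common biological coefficient of variation 0.256) tested 15467 genes with Benjamini-Hochberg adjustment over all of them. Log2 differences used a prior count of 0.125, and SE is the size of the log2 difference over the square root of F. Levels are CPM of TMM-scaled totals. DESeq2 1.42.0, other scalings and filters, and left-out libraries were alternatives. Ratios within libraries were compared by exact permutation tests. Scripts were tested on simulated data.

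The 33 genes and all lists were chosen with earlier results of these data known. Values in every library are given for members called in any comparison, the 3 with the smallest p in each, the most abundant in each role, and pairs of the largest ratio difference. Of other lists, called genes and some with the smallest p are named. A gene that the rule names is not reported here. NaBu libraries carry the column numbers 2, 4 and 6. Promoters came from RefSeq (GRCr8) and matched 25 of 33 genes by symbol; no coordinate of the deposited files was used.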

Additional observations from a re-analysis of the deposited data

How the results depend on the processing

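No difference of the 33 genes that passed the test reversed under the settings run. Calls were less stable. For Ang II against saline, 57 genes and 1 member were called with DESeq2, 1 gene with only the 2 groups in the fit, 3 with the highest transcript per gene and 11 without saline 2 and 3, where edgeR called 0 with every library. Without saline 2 and 3 a single saline library is left and is assumed to vary like the other groups, so calls against saline in that setting rest on the spread of those groups. The member median was 0.01 with total count scaling, 0.00 with the highest transcript and -0.00 without saline 2 and 3. Total count scaling shifted the median of all genes to 0.05, -0.13 and -0.11 in the 3 comparisons. The members lay below all genes by -0.04, -0.07 and -0.09 with it.

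For NaBu against Ang II, genes called were 1521 (DESeq2), 4 (total count scaling), 1802 (only the 2 groups), 5 (highest transcript) and 1695 (without saline 2 and 3), against 248. Members called were 4 of 33 with DESeq2 (9.83% of all genes) and 4 with only the 2 groups (11.9%). They were 2 with upper-quartile scaling (1.91%), 1 with the 1 CPM filter (2.04%) and 1 with values divided by 4 (2.59%). The member median was -0.13 with upper-quartile scaling, -0.21 with total counts and -0.05 with the highest transcript. Upper-quartile scaling gave 87 genes higher and 209 lower, against 100 and 148.

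For NaBu with Ang II against saline, genes called were 2007 (DESeq2), 411 (total counts), 9 (only the 2 groups), 20 (highest transcript) and 109 (without saline 2 and 3), against 782. Members called were 8 with DESeq2 (13% of all genes), 0 with only the 2 groups (0.0596%) and 0 with the highest transcript (0.13%). The member median was -0.18 with upper-quartile scaling, -0.20 with total counts and -0.06 without saline 2 and 3. Upper-quartile scaling gave 383 higher and 396 lower, against 465 and 317. The cause of these changes was not tested. With the highest transcript of each gene, 34 ratio tests could be run and 0 had an adjusted p under 0.05, a threshold that 3 libraries against 3 cannot reach.

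Leaving out 1 library at a time gave 0 to 7 genes, 0 members and medians of -0.07 to -0.01 for Ang II against saline. With NaBu against Ang II alone it gave 1 to 1482 genes (0.00634% to 9.43% of those tested), 0 to 3 members and medians of -0.13 to -0.08. There were 0 members called when the library left out was from the Ang II or the NaBu group. For NaBu with Ang II against saline it gave 6 to 1303 genes (0.0381% to 8.24% of those tested), 0 to 4 members and medians of -0.17 to -0.09. Without NaBu 2, 4 and 6 there were 0 members and 9, 111 and 6 genes.

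With a replicate block for Ang II against saline, 0 genes and 0 members were called and the median was -0.05. Libraries with the same number did not deviate together over all tested genes (r = -0.00413, -0.0328 and 0.0078). These values gave no sign of pairing by number. They cannot exclude it, since a link that touches few genes would leave r near these values. No paired analysis was possible for the NaBu comparisons because these columns carry the numbers 2, 4 and 6. Precision differed between members. The SE for NaBu against Ang II was 0.293 for Lama3, with 49 estimated counts in its lowest library, and 0.0919 for Agrn. It did not follow level alone. Col18a1 and Nid2, with Ang II means of 32.7 and 36.7 CPM, had SEs of 0.223 and 0.1, and Col12a1 had 0.425. These SEs come from the fit of all 3 groups, so they carry the spread of the saline libraries too. With only the 2 groups in the fit they were 0.116 for Col18a1, 0.085 for Nid2 and 0.223 for Col12a1.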
